A study of Danio rerio with 48 samples.

Results

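The exchangeable apolipoproteins of classes A, C and E were described through 9 zebrafish genes, apoa1a, apoa1b, apoa2, apoa4b.1, apoa4b.2, apoea, apoeb, apoc1 and apoc2. They were taken by gene symbol from a count table of 36109 genes, and all 9 were found and passed the filter on low counts together with 26268 genes in all. The table holds bulk RNA sequencing of yolk tissue and of whole embryos, both from wild type animals, at 6, 10, 26 and 48 hours post fertilization (hpf). Each tissue and age has 4 libraries, which makes 8 groups and 32 libraries. No allele, transgene or treatment is given for any group. How many embryos went into a library, how the yolk was separated and whether replicates were separate clutches is not stated in the labels. The p-values therefore cover the spread among these libraries, which may be technical. The title of the series places it in the supply of yolk lipid through an Hnf4 and lipoprotein axis, so the comparisons ask where and when transcript levels of these genes were high.

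Exchangeable apolipoproteins are small secreted proteins with amphipathic helices that bind the surface of lipoproteins and, unlike apolipoprotein B, can move from one particle to another. In zebrafish the yolk cell is covered by the yolk syncytial layer, a nucleated layer that packs yolk lipid into lipoproteins for the embryo before liver and intestine work. In mammals apolipoprotein A-I is the main protein of high-density lipoprotein (HDL) and activates the cholesterol-esterifying enzyme LCAT. Mammalian apolipoprotein E is a ligand of receptors of the LDL receptor family, apolipoprotein C-II is the activator of lipoprotein lipase, and apolipoprotein C-I slows lipase action and receptor uptake. A whole zebrafish embryo carries its yolk cell, so the tissues compared are a part and a whole. In bulk libraries fewer cells of a type and less RNA per cell cannot be told apart.

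By gene order in the RefSeq table of assembly GRCz12tu, in which all 9 symbols were matched, 6 of the 9 genes lie in 1 run. The order is apoa4b.1, apoa4b.3, apoa4b.2, apoeb, apoc1, apoc4, apoa2 and apoc2. No other protein-coding gene is listed between apoa4b.2 and apoc2, and 1 is listed on each side of apoa4b.3. Next to apoea lies apoa4a, while apoa1a and apoa1b have no other gene of this kind beside them. The counts were made on build GRCz11, so no coordinates are given.

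Library totals ran from 32302472 to 39765045 counts. Levels are given in CPM, counts scaled to library size with TMM factors. These factors were 0.5292 to 0.9537 in yolk and 1.004 to 1.507 in whole embryos, so the size of folds between tissues depends on them. Levels also depend on transcript length, so they are compared between samples and not between genes. A gene was called higher or lower where edgeR's quasi-likelihood test over all 32 libraries gave a Benjamini-Hochberg adjusted p under 0.05. The yolk label was checked against 8 markers of the yolk syncytial layer, whose summed level was 5560 to 7270 CPM in yolk and 589 to 817 CPM in whole embryos at 6 hpf, and 843 to 991 against 86.3 to 109 CPM at 48 hpf. Of the 8, 7, 7, 5 and 6 were higher in yolk at the 4 ages (24.8%, 24.5%, 20.6% and 22.8% of all genes tested). Lower were 0, 0, 0 and 1 (27.4%, 29.9%, 25.3% and 27.5%). The marker mxtx2 had 0 counts in all yolk libraries at 26 hpf. Replicate 1 of yolk at 26 hpf stood apart, with 6540 CPM summed over 10 muscle markers against 72.7 to 195 CPM in the other replicates. It also had the highest sum of 10 neural markers (575 against 44 to 81.7 CPM), and the lowest CPM of all 9 genes among yolk libraries of that age. TMM factors of replicates 1 to 4 there were 0.9368, 0.7295, 0.6004 and 0.5292, so the spread of CPM depends on them. As a share of counts replicate 1 was not the lowest for apoa4b.2 (0.1042% against 0.08814% and 0.09188% in replicates 2 and 4) or apoea (0.04584% against 0.03666% in replicate 3). Folds of the 9 genes between tissues at 26 hpf and at 26 against 10 hpf are given without replicate 1 too, while ratios, lists and group means include it. Epidermal markers summed to 5860 CPM in it, but also to 2920 and 2740 CPM in replicates 2 and 3, against 356 CPM in replicate 4, so leaving it out does not leave out that signal. At 6 hpf replicate 2 of yolk had the highest epidermal sum of its group, at 2020 against 208 to 352 CPM. It also had the highest neural sum (46.9 against 12.2 to 18.1 CPM) and apoa2 level (152 against 31.5 to 68.5 CPM). Its muscle sum was not the highest. Folds at 6 hpf and at 10 against 6 hpf include this library.

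**Figure D1:**
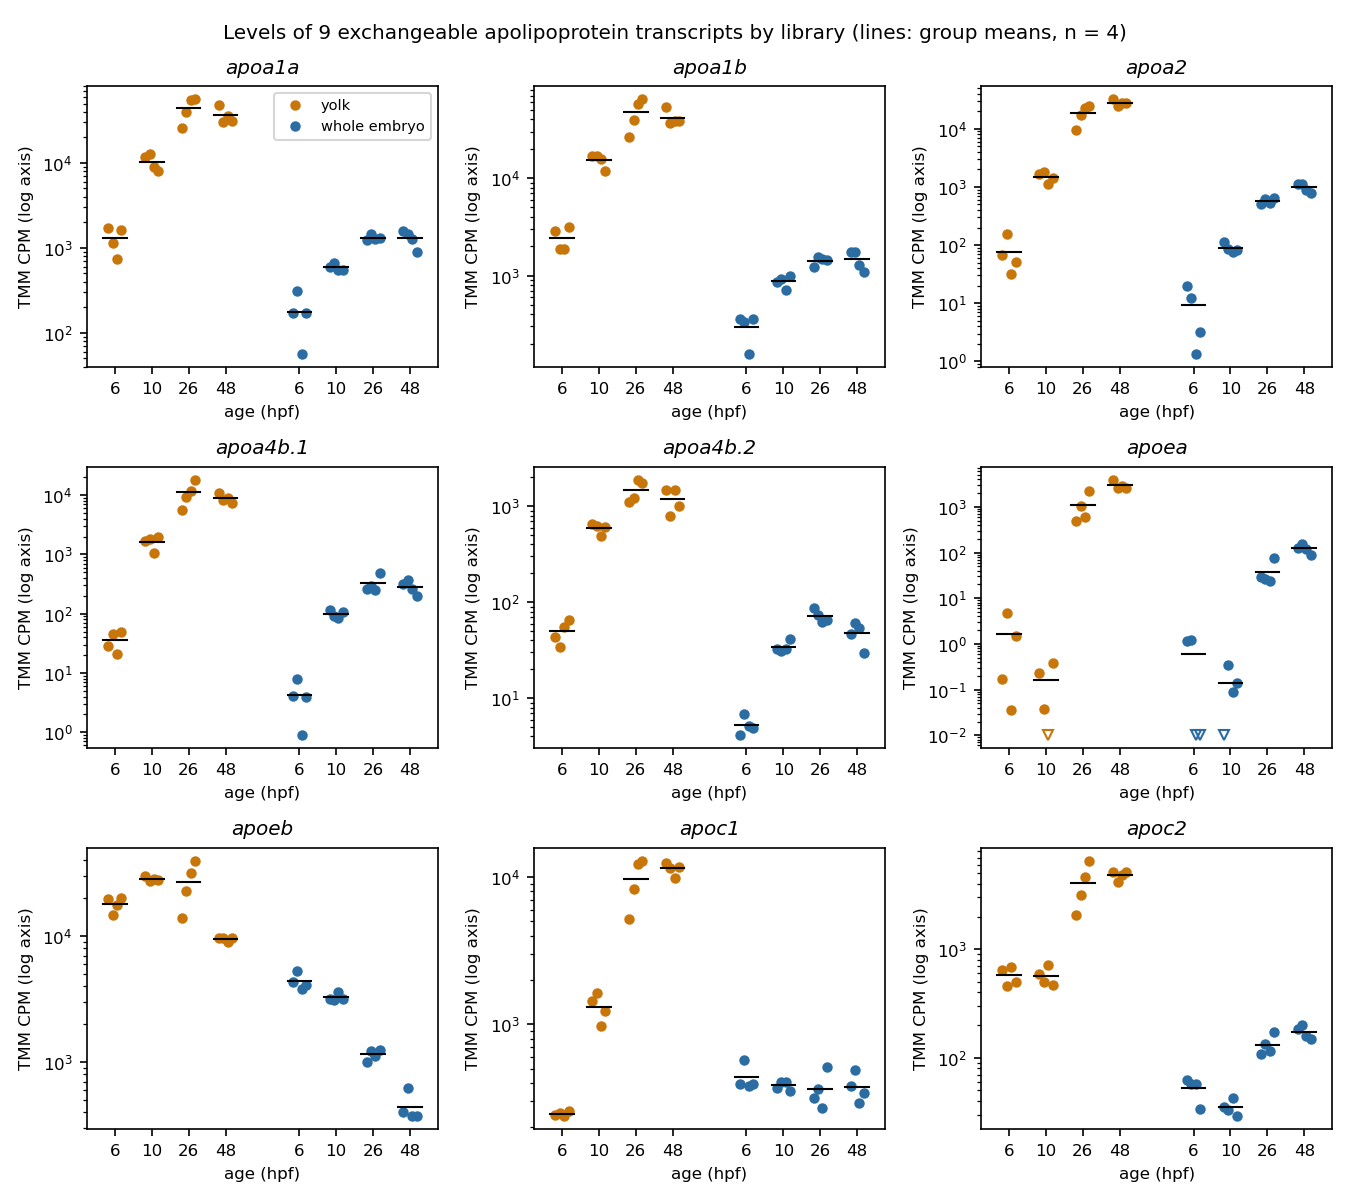
TMM-scaled CPM (log axis) of each gene in every library, yolk on the left and whole embryo on the right, by age in hpf, with points for libraries and lines for group means (n = 4). Open triangles mark libraries with 0 counts, which occur for apoea at 6 and 10 hpf. From 26 hpf on, every yolk library lies above every whole-embryo library for all 9 genes.

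Together the 9 genes took a growing share of the yolk transcriptome. They held 1.805 ± 0.1983% of all counts in yolk at 6 hpf, 4.283 ± 0.2625% at 10 hpf, 10.7 ± 1.675% at 26 hpf and 13.06 ± 1.123% at 48 hpf (SD, n = 4 each). In whole embryos the shares were 0.5521 ± 0.08144%, 0.7127 ± 0.01085%, 0.7982 ± 0.08834% and 0.7194 ± 0.1289% at the same ages (SD, n = 4 each). All yolk libraries of an age lay above those of the age before, although the ranges of 8.454 to 12.04% at 26 hpf and 12.17 to 14.7% at 48 hpf nearly met. Without replicate 1 the yolk libraries of 26 hpf ran from 10.39 to 12.04%. Whole-embryo libraries of 10, 26 and 48 hpf overlapped.

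Erythroid markers changed in the same step. The summed level of 8 such markers was 1.83 to 12.6, 4.23 to 7.25, 845 to 4710 and 365 to 1080 CPM in yolk at the 4 ages, and 1.19 to 13.9, 2.78 to 7.39, 878 to 1140 and 840 to 2540 CPM in whole embryos. In yolk 8 of 8 rose at 26 against 10 hpf (33.3% of all genes tested), and 0 rose and 6 fell at 48 against 26 hpf (12% and 16.1%). Between tissues 1, 0, 4 and 0 of 8 were higher in yolk (24.8%, 24.5%, 20.6% and 22.8% of all genes tested). Lower were 2, 1, 0 and 4 of 8 (27.4%, 29.9%, 25.3% and 27.5%), so some of these counts lie near the shares of all genes. The part of blood cells in the yolk levels was not tested.

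The make-up of this share turned over. In yolk apoeb gave 79.3% of the 9 genes' counts at 6 hpf, 47.5% at 10 hpf, 16.2% at 26 hpf and 6.58% at 48 hpf. The pair apoa1a and apoa1b gave 5.71% and 10.7% at 6 hpf, and 24.9% and 28.9% at 48 hpf. For apoa2 the share was 0.341% at 6 hpf and 19.4% at 48 hpf. Whole embryos showed a similar turnover, with apoeb at 81.7% of the counts at 6 hpf and 8.53% at 48 hpf. These are shares of reads, which longer transcripts raise, and they do not depend on the scaling of libraries.

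**Figure D2:**
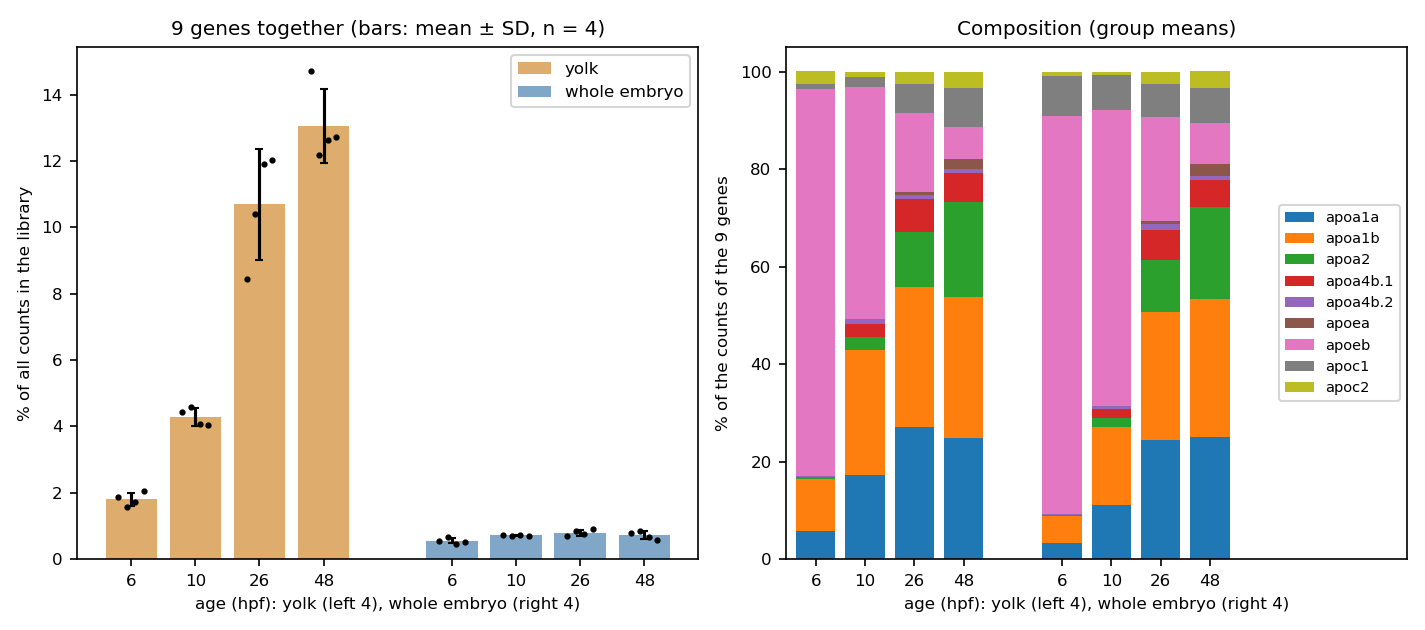
Left, percent of all counts in a library held by the 9 genes together (bars, mean ± SD, points, libraries, n = 4). Right, percent of the 9 genes' counts held by each gene (group means), by age in hpf, with yolk in the left 4 columns and whole embryo in the right 4. The yolk share is 1.805% at 6 hpf and 13.06% at 48 hpf, and apoeb makes up 79.3% and 6.58% of it at these ages.

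All 5 class A genes were higher in yolk at all 4 ages. For apoa1a, which encodes a zebrafish apolipoprotein A-I, yolk libraries had 1728, 1147, 738 and 1612 CPM at 6 hpf, and 11720, 12600, 8883 and 7972 CPM at 10 hpf. They had 25920, 40060, 54920 and 56860 CPM at 26 hpf, and 48370, 30020, 35990 and 30710 CPM at 48 hpf. Whole embryos had 55.7 to 307 CPM at 6 hpf, 548 to 668 CPM at 10 hpf, 1221 to 1458 CPM at 26 hpf and 890.2 to 1578 CPM at 48 hpf. The tissues did not overlap at any age, and in yolk only the libraries of 26 and 48 hpf overlapped. Yolk was 7.44-fold higher at 6 hpf (log2 2.90 ± 0.34 SE, adjusted p = 2.4e-08), 17.4-fold at 10 hpf, 33.7-fold at 26 hpf and 27.9-fold at 48 hpf. Without replicate 1 of yolk at 26 hpf, the value at that age was 38.3-fold.

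Its paralog apoa1b moved in step. Yolk averaged 2433 ± 673.3, 15310 ± 2296, 47280 ± 17630 and 41870 ± 8006 CPM at the 4 ages, and whole embryos 299.6 ± 96.85, 870.5 ± 117.9, 1421 ± 142.3 and 1471 ± 329.7 CPM (SD, n = 4 each). Yolk was 8.12-fold, 17.6-fold, 33.3-fold and 28.5-fold higher, with the largest adjusted p at 8.5e-11. In yolk apoa1b rose 6.29-fold at 10 against 6 hpf (adjusted p = 1.2e-09) and 3.09-fold at 26 against 10 hpf (adjusted p = 3.4e-06), and apoa1a rose 7.88-fold and 4.32-fold in the same steps. From 26 to 48 hpf neither passed the test (log2 -0.18 ± 0.25 SE for apoa1b and -0.29 ± 0.32 SE for apoa1a).

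The ratio of the A-I paralogs within a library does not depend on scaling. The log2 ratio of apoa1a to apoa1b was -0.931 ± 0.296 in yolk and -0.929 ± 0.578 in whole embryos at 6 hpf, and -0.0703 ± 0.0917 and -0.107 ± 0.0951 at 26 hpf (SD, n = 4 each). Between tissues it differed by at most 0.0363 at any age, and the 4 exact permutation tests gave p = 0.543 to 1. Within yolk the ratio was 1.43-fold higher at 26 against 10 hpf, where the 4 libraries of each age did not overlap (exact permutation p = 0.0286, adjusted p = 0.0889). That p is the smallest that 4 against 4 libraries allow. No ratio comparison passed after adjustment over the 28 tests of this family, of which 9 reached that smallest p. Reads of such related genes may be split by counting, so each is uncertain as a single gene.

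Transcripts of apoa2, which encodes apolipoprotein A-II, another protein of HDL in mammals, started low. Yolk libraries had 68.5, 152, 31.5 and 51.7 CPM at 6 hpf and 1660, 1771, 1132 and 1433 CPM at 10 hpf. They reached 9596, 16970, 22880 and 24420 CPM at 26 hpf and 32830, 24270, 27410 and 27600 CPM at 48 hpf. Whole embryos had 1.32 to 19.7, 76.3 to 112, 513 to 653 and 793 to 1124 CPM at the 4 ages. Yolk was higher at each age, by 8.26-fold, 16.8-fold, 31.8-fold and 28.6-fold (largest adjusted p = 1.2e-05). Whole-embryo replicates 1 to 4 at 6 hpf had 19.7, 12.5, 1.32 and 3.24 CPM of apoa2. Their muscle marker sums were 152, 283, 8.89 and 12.1 CPM. The part of that signal in apoa2, and so in its fold at 6 hpf, was not tested. In yolk apoa2 rose 19.7-fold at 10 against 6 hpf and 12.3-fold at 26 against 10 hpf (adjusted p = 1.4e-07 and 1.2e-06). The mean of 28030 CPM at 48 hpf lay above the 18470 CPM at 26 hpf, but libraries overlapped and the step did not pass (log2 0.60 ± 0.47 SE, adjusted p = 0.38).

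The apolipoprotein A-IV genes differed from each other in size of change. In yolk apoa4b.1 averaged 36.01 ± 13.68, 1628 ± 399, 11220 ± 5290 and 8829 ± 1526 CPM at the 4 ages, and apoa4b.2 averaged 49.73 ± 13.25, 592 ± 71.07, 1486 ± 382.9 and 1190 ± 344.7 CPM (SD, n = 4 each). At 10 against 6 hpf apoa4b.1 rose 45.2-fold and apoa4b.2 rose 11.9-fold (adjusted p = 6.1e-11 and 6.3e-13). At 26 against 10 hpf the rises were 6.89-fold and 2.51-fold (adjusted p = 1.4e-06 and 1.2e-05). The ratio of apoa4b.1 to apoa4b.2 within a library was accordingly 3.82-fold higher in the first step and 2.64-fold higher in the second, without overlap (exact permutation p = 0.0286 each, adjusted p = 0.0889). Yolk exceeded whole embryos 8.52-fold, 16.4-fold, 34.5-fold and 30.8-fold for apoa4b.1, and 9.5-fold, 17.2-fold, 20.7-fold and 24.9-fold for apoa4b.2.

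**Figure D3:**
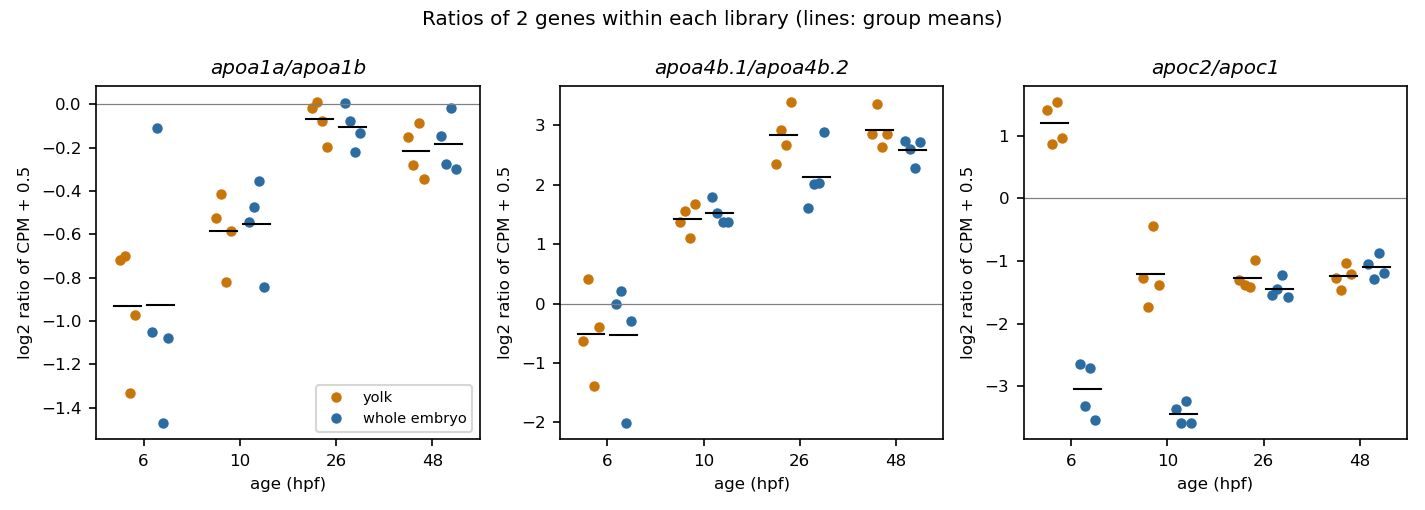
Log2 ratio of 2 genes within each library (CPM plus 0.5) by age in hpf, yolk left of whole embryo at each age, points for libraries and lines for group means (n = 4). The apoa1a to apoa1b ratio is alike in both tissues at each age, while the apoc2 to apoc1 ratio in yolk is 1.2 at 6 hpf and near -1.2 afterwards.

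Of the apolipoprotein E genes, apoeb was the early one. Yolk libraries had 19760, 14660, 17530 and 20190 CPM at 6 hpf, 29690, 27280, 28200 and 27630 CPM at 10 hpf, 13970, 22670, 31460 and 39470 CPM at 26 hpf, and 9660, 9556, 9025 and 9582 CPM at 48 hpf. Whole embryos had 3812 to 5278 CPM at 6 hpf, 3105 to 3624 CPM at 10 hpf, 1012 to 1254 CPM at 26 hpf and 372.2 to 622.5 CPM at 48 hpf, with no overlap between any ages. Every yolk library lay above every whole-embryo library of any age. In yolk apoeb rose 1.56-fold at 10 against 6 hpf (adjusted p = 0.008), did not pass at 26 against 10 hpf (log2 -0.07 ± 0.20 SE) and fell by 1.51 on the log2 scale at 48 against 26 hpf (adjusted p = 1.5e-06). Without replicate 1 of yolk at 26 hpf that fall was 1.72 (log2 -1.721), and with a replicate block on these 8 libraries alone it had an adjusted p = 0.053. Replicate numbers did not pair the libraries of that step, with correlations of -0.23 to 0.088 for same-numbered libraries and up to 0.23 for others. In whole embryos apoeb fell by 1.51 at 26 against 10 hpf and by 1.38 at 48 against 26 hpf (log2, adjusted p = 3.4e-07 and 9.3e-06). The excess in yolk was 4.12-fold, 8.63-fold, 23.4-fold and 21.4-fold at the 4 ages.

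Because apoeb also marks microglia in zebrafish, 11 macrophage and microglia markers of a list of 12 were set beside it. Their summed level was 26.6 to 110, 159 to 225, 160 to 282 and 104 to 155 CPM in yolk, and 374 to 445, 85.3 to 128, 33.4 to 46 and 35.5 to 54.2 CPM in whole embryos at the 4 ages. In yolk the sum was mostly that of lcp1 (30.34 ± 36.69 CPM) and slc7a7 (19.2 ± 5.437 CPM) at 6 hpf, and of slc7a7 at 10 hpf (193.2 ± 29.1 CPM, SD, n = 4 each). Singled out from the list, mpeg1.1 and p2ry12 had 0 counts in all yolk libraries at 6 and 10 hpf. In whole embryos p2ry12 had 0 counts at 6 hpf and mpeg1.1 at 10 hpf. At 26 and 48 hpf no marker was at 0 in all libraries of a group. Of the 10 markers tested, 1, 3, 7 and 1 were higher in yolk at the 4 ages (24.8%, 24.5%, 20.6% and 22.8% of all genes tested). Lower were 2, 1, 0 and 2 (27.4%, 29.9%, 25.3% and 27.5%). In yolk 8 of the 10 rose and 0 fell at 26 against 10 hpf (33.3% and 23.1%). In whole embryos 7 of the 10 rose and 2 fell in that step (30% and 26%), although their sum was lower. The part of these cells in the apoeb level was not tested.

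The other paralog, apoea, appeared late. Raw counts in yolk were 4, 136, 1 and 45 at 6 hpf and 6, 1, 0 and 10 at 10 hpf, against 43, 47, 0 and 0 and then 0, 16, 4 and 7 in whole embryos. Yolk then had 489, 1020, 610 and 2218 CPM at 26 hpf and 3910, 2599, 2812 and 2547 CPM at 48 hpf. Whole embryos had 28.7, 26.5, 23.5 and 75 CPM at 26 hpf and 126, 152, 122 and 90.5 CPM at 48 hpf. All libraries of 26 and 48 hpf thus lay above all of the earlier ages, and yolk lay above whole embryos at both later ages. At 26 against 10 hpf apoea rose in yolk by 12.68 ± 1.30 (SE) and in whole embryos by 8.06 ± 1.12 on the log2 scale (adjusted p = 4.8e-09 and 9.3e-07), sizes that rest on group totals of 17 and 27 counts at 10 hpf. Yolk was 28.2-fold higher at 26 hpf and 24.2-fold higher at 48 hpf (adjusted p = 7.1e-05 and 8.3e-05), and did not pass at 6 or 10 hpf (adjusted p = 0.19 and 0.94). The libraries of 48 hpf were all above those of 26 hpf in each tissue, but the steps did not pass (log2 1.45 ± 0.76 SE in yolk and 1.68 ± 0.77 SE in whole embryos).

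The apoea level in yolk was lower at 10 than at 6 hpf by the test (log2 -3.31 ± 1.17 SE, adjusted p = 0.021), yet libraries overlapped. Without replicate 2 of yolk at 6 hpf, which held 136 of the 186 counts, the adjusted p was 0.23, and without replicate 2 or 3 of yolk at 10 hpf it was 0.06 or 0.061. The summed level of 10 epidermal markers in yolk at 6 hpf was 208 to 2020 CPM, with the highest in that same library. The sum of 10 muscle markers was 45.9, 95.1, 21.8 and 158 CPM in yolk replicates 1 to 4 at 6 hpf. In whole embryos at 6 hpf it was 152, 283, 8.89 and 12.1 CPM, where apoea had 43, 47, 0 and 0 counts. The part of either signal in the apoea counts was not tested.

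The class C genes parted at 6 hpf. For apoc1 yolk libraries had 243, 248, 237 and 257 CPM at 6 hpf, against 393, 572, 382 and 394 CPM in whole embryos. Yolk was 1.77-fold lower without overlap (log2 -0.82 ± 0.22 SE, adjusted p = 0.0023), and no other gene of the 9 was lower in yolk at any age. Yolk libraries then had 1434, 1645, 970 and 1228 CPM at 10 hpf, 5180, 8315, 12280 and 12920 CPM at 26 hpf, and 12550, 11520, 9906 and 11810 CPM at 48 hpf. Whole embryos had 354 to 407 CPM at 10 hpf, 271 to 512 CPM at 26 hpf and 291 to 489 CPM at 48 hpf, so their libraries overlapped between neighbouring ages throughout. Yolk was 3.43-fold, 26.4-fold and 30.5-fold higher at 10, 26 and 48 hpf (adjusted p = 8.1e-08, 7.3e-15 and 1e-14). In yolk apoc1 rose 5.36-fold and then 7.33-fold in the steps to 10 and 26 hpf (adjusted p = 4.9e-10 and 2.1e-11), while no step in whole embryos passed (adjusted p = 0.54, 0.8 and 0.94).

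For apoc2 the yolk level was high before it rose. Yolk libraries had 651, 454, 689 and 501 CPM at 6 hpf and 595, 495, 712 and 469 CPM at 10 hpf, which overlapped. They had 2090, 3195, 4591 and 6536 CPM at 26 hpf and 5153, 4189, 4823 and 5120 CPM at 48 hpf. Whole embryos had 33.4 to 62.6, 28.9 to 42.6, 108 to 171 and 149 to 200 CPM at the 4 ages. Yolk was higher by 10.9-fold, 16.2-fold, 31.1-fold and 27.9-fold (largest adjusted p = 3.4e-12). Between 6 and 10 hpf the yolk level did not pass (log2 -0.02 ± 0.24 SE, adjusted p = 0.99), and at 26 against 10 hpf it rose 7.23-fold (adjusted p = 1.3e-10).

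Within a library the log2 ratio of apoc2 to apoc1 was 1.2 ± 0.329 in yolk and -3.05 ± 0.444 in whole embryos at 6 hpf (SD, n = 4 each). At 10 hpf it was -1.21 ± 0.545 in yolk and -3.45 ± 0.177 in whole embryos. The ratio was thus 19-fold and 4.72-fold higher in yolk, without overlap (exact permutation p = 0.0286 each, adjusted p = 0.0889). At 26 and 48 hpf the tissues differed by 0.177 and -0.146, and their libraries did not separate (exact permutation p = 0.229 and 0.314).

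Ordered over all 8 groups, apoa1a, apoa1b, apoa4b.1 and apoa4b.2 were highest in yolk at 26 hpf, and apoa2, apoea, apoc1 and apoc2 in yolk at 48 hpf. The libraries of these ages overlapped for 7 of these 8 genes, all but apoea, so their order is not separated. For apoa1a, apoa1b, apoa4b.1 and apoa4b.2 the order of these ages also depends on scaling. Their log2 changes in yolk at 48 against 26 hpf were -0.29, -0.18, -0.35 and -0.32 with TMM. Library totals moved the median of all genes by 0.368 in that step, which is larger than each of these falls. The highest group of apoeb was yolk at 10 hpf, which overlapped yolk at 26 hpf. The lowest group was whole embryo at 6 hpf for the 5 class A genes, whole embryo at 10 hpf for apoea and apoc2, whole embryo at 48 hpf for apoeb and yolk at 6 hpf for apoc1. Yolk at 6 hpf overlapped whole embryos of a later age for apoa1a (26 and 48 hpf), apoa2 and apoea (10 hpf) and apoa4b.2 (10, 26 and 48 hpf).

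Set against all genes tested, the 9 genes leaned to yolk throughout. At 6 hpf 7 of 9 were higher in yolk and 1 lower, where 24.8% of all genes tested were called higher and 27.4% lower. At 10 hpf 8 of 9 were higher (24.5% of all genes) and 0 lower (29.9%). At 26 hpf 9 of 9 were higher (20.6%) and 0 lower (25.3%), and at 48 hpf 9 of 9 were higher (22.8%) and 0 lower (27.5%). No gene of the 9 was lower at 10, 26 or 48 hpf at an unadjusted p under 0.05 or by DESeq2 either. The median log2 difference of the 9 genes was 3.02, 4.03, 4.96 and 4.8 at the 4 ages, against -0.0459, -0.222, -0.248 and -0.0362 over all genes tested. Without replicate 1 of yolk at 26 hpf 9 of 9 remained higher at that age, by 22.4-fold to 40.2-fold. The 36 results of 9 genes at 4 ages kept their direction and side of the threshold under every alternative run and without any 1 library compared. Among these alternatives, scaling by totals moved the median of all genes by -0.368, -0.874, -1.06 and -0.61 on the log2 scale. Folds of yolk excess given here rest on TMM and are smaller by totals. The shift was larger at 26 than at 48 hpf, so the order of folds at these ages depends on scaling. As a share of all counts apoa1a held 2.428 to 3.298% in yolk and 0.1793 to 0.214% in whole embryos at 26 hpf. At 48 hpf it held 2.863 to 3.982% and 0.1271 to 0.2097%.

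Among genes with at least 10 CPM in the higher tissue, several of the 9 lay near the top of the range of yolk excess. At 6 hpf apoc2 exceeded 96.8% of 9662 such genes, the class A genes 91 to 94.6%, apoeb 84.8%, apoea 79.7% and apoc1 34.7%. At 10 hpf apoea exceeded 57.3% of 10150 genes, apoc1 79.3% and apoeb 89.8%, and the other 6 at least 98.3%. At 6 and 10 hpf apoea itself was under 10 CPM in both tissues and not called, so its place at these ages rests on few counts. At 48 hpf all 9 exceeded at least 98.1% of 12039 genes. The 99th percentile of these genes was 12.6-fold at 6 hpf, 16.9-fold at 10 hpf, 29.5-fold at 26 hpf and 25.1-fold at 48 hpf. Whole embryos contain the yolk, so folds at different ages also depend on the part of yolk RNA in them.

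**Figure D4:**
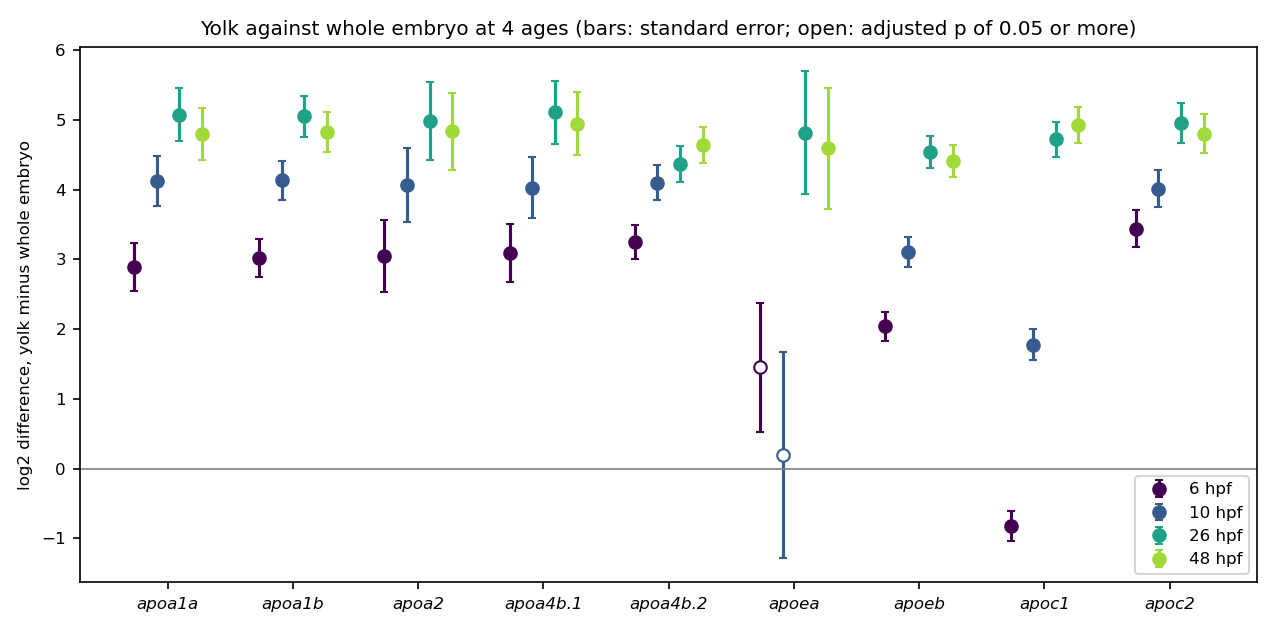
Log2 difference of yolk minus whole embryo for each gene at 6, 10, 26 and 48 hpf (points, edgeR estimates, bars, standard error, 8 libraries per comparison). Filled points have an adjusted p under 0.05. Only apoc1 at 6 hpf lies below 0 (-0.82), apoea is open at 6 and 10 hpf, and all 9 genes lie above 4 at 26 and 48 hpf.

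Most changes with age were called in the steps up to 26 hpf. In yolk 7 of 9 genes rose and 1 fell at 10 against 6 hpf, where 25.8% and 23.4% of all genes did so, and 8 of 9 rose and 0 fell at 26 against 10 hpf (33.3% and 23.1%). At 48 against 26 hpf 0 rose (12%), and 1 of 9, apoeb, fell (16.1%). In whole embryos 5 rose and 1 fell in the first step (21.2% and 20%), 7 rose and 1 fell in the second (30% and 26%), and in the third 0 rose (12.5%) and 1 fell (9.83%). The single fall in the first whole-embryo step was apoc2 (log2 -0.59 ± 0.24 SE, adjusted p = 0.048), which overlapped between ages and did not pass with library totals (adjusted p = 0.36) or with a replicate block (adjusted p = 0.052). Replicate numbers did not clearly pair the libraries of that step, with correlations of 0.062 to 0.33 for same-numbered libraries and up to 0.33 for others. The fall of apoc2 was lost in 6 of 8 removals of 1 library, all but those of replicate 4 at 6 hpf and replicate 3 at 10 hpf (adjusted p = 0.082 to 0.13). The rise of apoa1b in whole embryos at 26 against 10 hpf (log2 0.71 ± 0.25 SE, adjusted p = 0.017) was lost without replicate 3 at 10 hpf, or replicate 2 or 3 at 26 hpf (adjusted p = 0.058, 0.058 and 0.051). In the last step DESeq2 also called 0 rises, and at an unadjusted p under 0.05 there were 0 in yolk and 1 in whole embryos. With library totals apoc1 and apoc2 rose in yolk in that step (log2 0.72 and 0.73). By totals 5985 of 26268 genes rose there, so 2 of 9 lies near the share of all genes.

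Without replicate 1 of yolk at 26 hpf, the rises in yolk at 26 against 10 hpf were 4.92-fold for apoa1a, 3.55-fold for apoa1b, 14.3-fold for apoa2, 8.03-fold for apoa4b.1 and 2.72-fold for apoa4b.2. They were 8.46-fold for apoc1, 8.41-fold for apoc2 and 12.92 on the log2 scale for apoea, with a largest adjusted p of 4.9e-06 over these 8 genes, while apoeb did not pass (1.11-fold, adjusted p = 0.48). At 48 against 26 hpf apoeb again was the 1 gene called. Yolk exceeded whole embryos at 26 hpf 38.1-fold for apoa1b, 36.8-fold for apoa2, 40.2-fold for apoa4b.1, 22.4-fold for apoa4b.2, 33.3-fold for apoea, 27.1-fold for apoeb, 30.4-fold for apoc1 and 36.1-fold for apoc2.

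The change in yolk exceeded that in whole embryos for 5 of 9 genes in the step to 10 hpf (13.8% of all genes) and for 5 of 9 in the step to 26 hpf (17.1%), by a test of the difference of changes. It did so for 0 in the step to 48 hpf (9.29%), and it was smaller for 0 of the 9 in the 3 steps (13%, 12.3% and 13.2%). At an unadjusted p under 0.05 these counts of 0 were also 0. In both earlier steps apoc1 and apoeb were among the 5, with log2 differences of 2.60 and 1.07 in the first and 2.94 and 1.44 in the second. These held without any 1 of the 16 libraries compared, while the calls of 5 other results were lost in 8 to 12 of the 16 removals. With library totals 2 of 9 were called in each of the 3 steps, the last included, beside 1884, 2903 and 4500 of 26268 genes. The 2 of 9 in the last step thus lie near the share of all genes. With a replicate block or no filter on low counts 3 of 9 were called in the step to 10 hpf. In the step to 26 hpf DESeq2 size factors gave 2 of 9 (3408 of 26268 genes), DESeq2's Wald test 3, and the libraries of the contrast alone 8. Shares of all genes under the other settings are not given here. Without replicate 1 of yolk at 26 hpf 5 of 9 were called in that step. Whole embryos contain the yolk, so a falling part of yolk RNA in them can also make a change larger in yolk. The 99th percentile of yolk excess among genes of at least 10 CPM was 12.6-fold, 16.9-fold and 29.5-fold at 6, 10 and 26 hpf. Such a fall and a larger change of the gene itself cannot be told apart here.

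Partners of these proteins were counted from lists by role. The shares of all genes tested to read them against were 24.8%, 24.5%, 20.6% and 22.8% called higher in yolk at the 4 ages, and 27.4%, 29.9%, 25.3% and 27.5% called lower. Small lists can lie near these shares, as the lipase list does for genes higher at 6 and 10 hpf. Of 11 other apolipoproteins tested, 3, 6, 7 and 8 were higher in yolk at the 4 ages and 1, 1, 3 and 1 lower. On the mean over the 4 ages the largest excess was that of apobb.2 and apobb.1, which encode apolipoprotein B, at 10.9-fold and 10.4-fold at 6 hpf and 24.1-fold and 25.1-fold at 48 hpf. The third was apom, an HDL-borne lipid carrier in mammals, at 882.4 ± 573.4 against 27.4 ± 15.64 CPM at 26 hpf. Genes beside the 9 were also looked at after their values were seen. The neighbour of apoea, apoa4a, had 1.712 ± 1.163 CPM in yolk at 10 hpf and 779.4 ± 521.3 CPM at 26 hpf, and was 29.2-fold higher in yolk than in whole embryos at 26 hpf. Between apoc1 and apoa2, apoc4 stayed under 1 CPM in every library.

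For HDL formation and cholesterol efflux, 4, 6, 4 and 4 of 8 genes tested were higher in yolk and 2, 0, 3 and 2 lower. Among them were abca1b, which encodes an ATP-driven lipid exporter that loads apolipoprotein A-I (8.96-fold at 6 hpf and 19.2-fold at 48 hpf), and lcat (10.5-fold and 12.9-fold). The HDL receptor gene scarb1 had 424 ± 86.18 against 47.67 ± 12.45 CPM at 6 hpf and 26.02 ± 9.439 against 6.271 ± 0.754 CPM at 48 hpf. Of 7 lipoprotein lipase genes and modulators, 2, 2, 3 and 4 were higher and 3, 4, 3 and 0 lower. Here lipia was lower in yolk at 6, 10 and 26 hpf, and lmf2b was lower at 10 hpf. Singled out after its values were seen because apolipoprotein C-II activates its product, lpl had 2.191 ± 0.6464 against 12.35 ± 1.861 CPM at 10 hpf and 85.56 ± 16.31 against 37.75 ± 7.208 CPM at 48 hpf.

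Of 11 receptor and adaptor genes, 4, 2, 2 and 4 were higher in yolk and 5, 7, 7 and 6 lower, with medians of -1.04, -1.01, -1.15 and -0.98 on the log2 scale. The named members were lower at all 4 ages, among them ldlrb (3.457 ± 3.926 against 30.97 ± 2.554 CPM at 6 hpf), lrp8, an apolipoprotein E receptor of brain in mammals (6.282 ± 0.9201 against 53.31 ± 3.977 CPM at 48 hpf), and the adaptor ldlrap1b. Of 15 regulators, 10, 12, 9 and 12 were higher and 2, 0, 0 and 0 lower, with medians of 1.81, 2.94, 1.88 and 3.68. They were led by creb3l3b (11.3-fold at 6 hpf and 35.1-fold at 26 hpf), hnf4a and hnf4b. The yolk level of hnf4a was 1664 ± 143, 397.5 ± 49.52, 72.38 ± 37.25 and 154.6 ± 4.176 CPM at the 4 ages, and that of hnf4b 374.1 ± 52.22, 647 ± 59.19, 176.1 ± 83.41 and 104.2 ± 20.79 CPM. Both were highest before 26 hpf, when 8 of the 9 genes described here had not reached their highest level. The yolk level of creb3l3b was 34.7 ± 9.236, 130.6 ± 14.17, 168 ± 59.8 and 83.45 ± 16.33 CPM, with the highest mean at 26 hpf.

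Genes listed as hepatocyte markers were also set beside the 9 genes, although their sum alone does not show that hepatocytes are present. The summed level of 10 such markers was 19.7 to 42.2, 1420 to 1600, 5660 to 13000 and 9130 to 11900 CPM in yolk, and 3.64 to 10.9, 78.4 to 126, 370 to 430 and 355 to 561 CPM in whole embryos at the 4 ages. Of the 10, 4, 8, 8 and 8 were higher in yolk and 0, 0, 1 and 0 lower, to be read against the shares of all genes tested given for the partner lists. The largest mean differences over the 4 ages were those of serpina1, ambp and fga (log2 4.2, 3.86 and 3.77). Singled out from this list, fabp10a did not follow the sum. It was at most 0.174 CPM in yolk at 26 hpf and at 5.635 to 12.42 CPM at 48 hpf. The part of hepatocytes in the yolk levels at 48 hpf was not tested.

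As a description, the level pattern over the 32 libraries was compared with that of 12612 other named genes of at least 10 CPM in a group, by Pearson's r of log2 CPM. Libraries of a group share tissue and age, so these points are not independent. The genes most like apoa1a, apoa1b and apoa4b.2 included bhmt (r = 0.993, 0.99 and 0.99) and fabp1b.1 (0.99, 0.988 and 0.992), and those of apoa2 and apoa4b.1 included g6pca.2 (0.986 and 0.99). For apoea they were krt18b, cp and rdh5 (0.975, 0.973 and 0.972), for apoeb cyp2aa4, fbp1b and psap (0.988, 0.983 and 0.982), for apoc1 sfxn2, fuca2 and slc48a1b (0.971, 0.968 and 0.961), and for apoc2 slc25a25a, pla2g15 and rnf213a (0.97, 0.965 and 0.964). Among the 9 genes r was 0.9 to 0.991 between class A genes and -0.115 between apoea and apoeb. The neighbours apoc1 and apoeb had r = 0.516, and apoc1 and apoa2 0.817.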

How the data were processed

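TRIzol extraction of total RNA and a NEBNext Ultra II RNA kit are stated per the labels' protocols. What the authors deposited are raw counts per gene symbol, with no normalization and 1 column for each library. Per the submitters' processing notes, the build is GRCz11 and the tools include STAR 2.7.10b for alignment and featureCounts 2.0.6, with Trim Galore 0.6.10 and FastQC 0.12.1. The sources used here do not give annotation, strand setting or the handling of reads that match several genes, so overlapping and closely related genes are uncertain. Of 48 samples in the labels, 16 of body tissue were not analysed here.

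Genes passed filterByExpr (minimum count 10, minimum total 15). TMM factors and a robust quasi-likelihood fit in edgeR 4.0.16 (R 4.3.3) used 8 group means with 24 residual degrees of freedom. All 13 contrasts were tested two-sided, p-values were adjusted by Benjamini and Hochberg over 26268 genes, and 0.05 was the threshold. A standard error is the size of a log2 change divided by the square root of F. Ratios of genes within a library (pseudocount 0.5 CPM) were compared by exact two-sided permutation, adjusted over 28 tests. The method was tested on simulated counts, where it recovered fewer of the changed genes than the bar first set, which was then lowered. Genes not called may therefore have changed.

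Members, lists and tests were chosen with earlier results of these data known. Named were the 9 genes, up to 3 genes per list with the largest mean difference between tissues among those called, and per gene the 3 most alike. Of the genes this rule names in the lists, 1 is not reported here. Listed symbols without a row, such as apoa4b.3, were not analysed here. Replicates of a group differed by more than sampling noise (chi-square per gene at least 17.7). Same-numbered libraries deviated together (correlations 0.19 to 0.43 over 9034 genes) in yolk against whole embryo at all 4 ages and in yolk at 10 against 6 hpf, so the numbers pair those libraries. In the other age steps the numbers did not pair libraries by this measure. Both statements come from the data, not the labels. Promoter and protein sequences were not used here. Alternatives were DESeq2 1.42.0 (size factors and Wald test), library totals, no filter, the libraries of a contrast alone, a replicate block, a ratio pseudocount of 5 CPM and removal of each library.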

Additional observations from a re-analysis of the deposited data

Results flagged for a closer look

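In 8 of 72 groups of 4 libraries 1 library lay apart from the others relative to the range of its group, by a Dixon test that chance passes in about 1 of 20 groups. A tight group can thus be flagged for a small difference. The 72 groups share libraries and are not independent, so 1 of 20 is only a rough guide. For apoa1b the flagged libraries were replicate 1 of yolk at 48 hpf, at 53770 CPM, and replicate 3 of whole embryos at 6 hpf, at 155.4 CPM. In whole embryos at 26 hpf replicate 4 was high for both apoa4b.1 (485.1 CPM) and apoea (74.96 CPM). For apoeb replicate 3 of yolk at 48 hpf was low at 9025 CPM against 9556 to 9660 CPM, a tight group. In whole embryos replicate 3 at 10 hpf and replicate 2 at 48 hpf were high at 3624 and 622.5 CPM. For apoc1 replicate 2 of whole embryos at 6 hpf was high at 572.3 CPM.

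The change with age differed between yolk and whole embryos for 10 results, each larger in yolk by edgeR's test of the difference of changes. Whole embryos contain the yolk, so a falling part of yolk RNA in them can also give such a difference, which was not tested. In the step to 10 hpf the log2 differences were 2.602 for apoc1 (adjusted p = 2.1e-07), 1.066 for apoeb (0.0046), 1.115 for apoa1b (0.018), 1.227 for apoa1a (0.042) and 0.8558 for apoa4b.2 (0.046). In the step to 26 hpf they were 2.944 for apoc1 (2.9e-08), 1.438 for apoeb (0.00024), 0.9401 for apoc2 (0.035), 4.622 for apoea (0.041) and 0.919 for apoa1b (0.048). Those of apoc1 and apoeb in both steps and of apoa1b in the first were kept without any 1 library. The call of apoa1a was lost in 10 of 16 removals, with the highest adjusted p (0.16) without replicate 2 of whole embryos at 6 hpf, and that of apoa4b.2 in 11 (0.11, without the same library). In the step to 26 hpf apoc2 was lost in 8 removals and apoa1b in 12, with the highest adjusted p (0.13 and 0.12) without replicate 4 of yolk at 26 hpf. For apoea, lost in 11 removals, the highest was 0.21, without replicate 2 of whole embryos at 10 hpf, which held 16 of the 27 counts of that group.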

How the results depend on the processing

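All 36 results of the 9 genes between tissues kept direction and call under every alternative, the replicate block included, and no result changed sign as a called value. Counts of genes lower or higher in steps were less stable. With library totals, 2 of 9 rose in yolk at 48 against 26 hpf, 0 fell in whole embryos at 10 against 6 hpf, 2 fell at 48 against 26 hpf, and the change was larger in yolk for 2, 2 and 2 of 9 in the 3 steps. Of 26268 genes, 5985, 2865 and 2837 were called in these age steps in the same directions. The change was larger in yolk for 1884, 2903 and 4500 genes. With DESeq2 size factors and with its Wald test, 2 fell in whole embryos at 10 against 6 hpf, and 2 and 3 changes were larger in yolk in the step to 26 hpf. With the size factors 5833 and 3408 genes were so called. Counts of all genes under the other alternatives are not given here. With no filter on low counts and with a replicate block, 0 fell in that first whole-embryo step and 3 changes were larger in yolk in the step to 10 hpf. With the 8 or 16 libraries of a contrast alone, 0 fell in yolk at 10 against 6 hpf and 1 rose at 48 against 26 hpf, 2 fell in whole embryos at 10 against 6 hpf, 2 rose and 2 fell at 48 against 26 hpf, and 8 changes were larger in yolk in the step to 26 hpf. With a replicate block on those libraries, 0 fell in yolk in the first step and 0 in the last, 2 fell in whole embryos in the first step, and 1 rose and 2 fell in the last. Without 1 library each, falls numbered 0 to 1 in yolk at 10 against 6 hpf, 0 to 1 in whole embryos at 10 against 6 hpf and 1 to 2 at 48 against 26 hpf, where the 2 came without replicate 2 of whole embryos at 48 hpf, and larger changes in yolk numbered 3 to 5 in the step to 10 hpf and 2 to 5 in that to 26 hpf. The causes of these changes were not tested. Ratios gave 0 calls under each alternative run. Over 28 tests a smallest exact permutation p of 0.0286 passes adjustment only where many tests reach it. These counts of 0 were thus nearly fixed by the number of libraries and say little of stability. In a paired sign-flip test 4 pairs allow no p under 0.125. Library totals moved the split of all genes called higher and lower in yolk to 5027 and 8841 at 6 hpf, 3931 and 12344 at 10 hpf, 2633 and 14969 at 26 hpf, and 3030 and 11166 at 48 hpf, against 6514 and 7199, 6448 and 7859, 5406 and 6645, and 5998 and 7232 with TMM. Library totals also moved the log2 median of all genes by -0.142 and 0.368 in yolk in the steps to 10 and 48 hpf, by 0.361 and 0.154 in whole embryos in the steps to 10 and 26 hpf, and by -0.503, -0.201 and 0.455 in the differences of changes. The split of calls higher and lower became 5985 and 2626 with totals in yolk at 48 against 26 hpf (3162 and 4235 with TMM), 7540 and 2865 in whole embryos at 10 against 6 hpf (5559 and 5254), and 1884 and 5323, 2903 and 3614, and 4500 and 1992 in the differences of changes (3627 and 3412, 4498 and 3242, and 2439 and 3475). DESeq2 size factors moved the median by 0.118, 0.171 and -0.12 between tissues at 6, 10 and 48 hpf, by 0.202 in whole embryos in the step to 26 hpf, and by -0.179 and -0.111 in the later differences of changes. Depth limits apoea at 6 and 10 hpf, with 17 to 186 counts per group.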
